A study of Mus musculus with 6 samples.

Results

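The transcriptome described here is that of wt lung neutrophils: 3 of the 6 RNA-seq libraries of the series, chosen by their wt label. Ly6G, a surface protein of mouse neutrophils, was used to sort them from digested lung. The wt mice were Cre-negative TGFbR2-fl/fl littermates. They carried loxP-flanked alleles of Tgfbr2, the type II receptor gene for TGF-beta, but not the S100A8-cre,-EGFP transgene that deletes it in the other group. The floxed allele came from B6;129-Tgfbr2tm1Karl/J mice, so the controls are floxed animals of a mixed cross and not plain C57BL/6 mice. The 3 libraries of the Mrp8-Cre;TGFbR2-fl/fl group were not analysed here, and no genotype was compared with another. Lungs had been perfused, minced and digested with liberase before the sort, and the labels used here give neither age nor sex. The design states 3 animals in the group, but the labels do not tie a library to 1 mouse, so the spread between libraries may be technical.

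Neutrophils are short-lived granulocytes that leave the bone marrow after they have stopped dividing. Their granule proteins are made in sequence during maturation in the marrow: azurophil granules first, then specific granules, then gelatinase granules and secretory vesicles. A large pool is held in the capillaries of the lung, where the cells respond to chemokines, complement and bacterial products with adhesion, the oxidative burst, cytokine release and lipid mediators.

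The deposited table held 55487 genes. The 3 libraries had totals of 30577737, 30423365 and 32132330 counts, and 31931 genes had no count in any of them. Levels are given as CPM (counts-per-million of the library total), which suits 1 gene across libraries. To set genes beside each other the counts were divided by the summed exon length in kilobases and scaled to the same total as CPM, the per-kilobase level. A level of 3 counts, the limit that a count of 0 allows, was 0.0934 to 0.0986 CPM, which covers counting error only. A gene was taken as detected at 1 CPM or more in each of the 3 libraries: 11378 genes were, 20.5% of the table and 47.6% of its 21903 protein-coding genes. The median detected gene had a per-kilobase level of 12.6. Protein-coding genes took 97.6% to 97.8% of the counts, and mitochondrially encoded genes 0.223% to 0.334%.

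The cells' label was checked against 6 neutrophil markers, all of which were among the 100 highest of 55487 genes per kilobase. Il1b, which encodes the inflammatory cytokine interleukin 1 beta, ranked first (ENSMUSG00000027398.13, GRCm38 chromosome 2, minus strand, 129364570 to 129371139). It stood at 13493, 13588 and 13986 CPM in wt replicates 1 to 3, a mean of 13689 ± 261 CPM (SD, n = 3). The 3 libraries lay within 1.04-fold of each other. Csf3r (ENSMUSG00000028859.14, plus strand of chromosome 4, 126024550 to 126044440), the receptor for G-CSF that drives neutrophil production, stood at 8203, 8005 and 9194 CPM and ranked 12th per kilobase.

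S100a8 and S100a9 encode the 2 chains of calprotectin, the most abundant protein of neutrophil cytosol. S100a8 (ENSMUSG00000056054.9, plus strand of chromosome 3, 90668978 to 90670035) stood at 1680, 1743 and 1681 CPM, and S100a9 (ENSMUSG00000056071.12, minus strand of chromosome 3, 90692632 to 90695721) at 1085, 1151 and 1225 CPM. Both genes are short, so their ranks of 83 and 135 by CPM became 11 and 13 per kilobase. Cxcr2 (ENSMUSG00000026180.8, plus strand of chromosome 1, 74153989 to 74161246), the main chemokine receptor for egress from the marrow, stood at 2611, 2463 and 2594 CPM and ranked 43rd on both scales. Retnlg (ENSMUSG00000022651.6, plus strand of chromosome 16, 48872621 to 48874496), a resistin-like secreted protein, stood at 275, 417 and 326 CPM and ranked 78th per kilobase. Of these 6 markers it had the widest spread between libraries.

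Ly6g encodes the protein on which the cells were sorted, yet its transcript was modest. Ly6g (ENSMUSG00000022582.4, plus strand of chromosome 15, 75155240 to 75159126) stood at 23.7, 35.0 and 19.2 CPM, from 724, 1066 and 617 counts. It ranked 1370th per kilobase, with a level of 93.8 ± 28.3 (SD, n = 3) against 8362 ± 78.7 for S100a8. None of its annotated exon bases lay in an exon of another gene.

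Few genes carried much of the RNA. The 10 genes with the highest mean CPM took 10.3% to 10.7% of the counts, the 100 highest 33.9% to 34.1%, and 273 to 280 genes held 50 percent of each library. By CPM the order began with Dusp1, Il1b, H2-D1, Actb, Junb, Mxd1, Csf3r, Fth1, Cd14 and Hdc. Dusp1, a phosphatase that switches off MAP kinases, stood at 20471, 17727 and 19569 CPM. Hdc, the enzyme that makes histamine, stood at 6326, 5928 and 5785 CPM.

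Per kilobase the 20 highest genes fell into a few roles. Cytokine and receptor genes were Il1b at 24487, the LPS co-receptor Cd14 at 11862, the interleukin 1 decoy receptor Il1r2 at 9185, Csf3r at 8006, the atypical chemokine receptor Ccrl2 at 6860 and the amplifying receptor Trem1 at 5783. Rapidly induced regulators were Dusp1 at 19849, Junb at 13716, Fos at 8532, the antiproliferative gene Btg2 at 6966 and the NF-kB inhibitor Nfkbia at 6637. The remainder were H2-D1 at 17303, Actb at 16405, the lipase inhibitor G0s2 at 10299, lysozyme (Lyz2) at 9696, S100a8 at 8362, S100a9 at 7538, the ferritin heavy chain Fth1 at 6527, Grina at 5340 and 1 ribosomal RNA entry. These values are mean per-kilobase levels, and the plot of the 20 highest genes shows them by library.

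**Figure D1:**
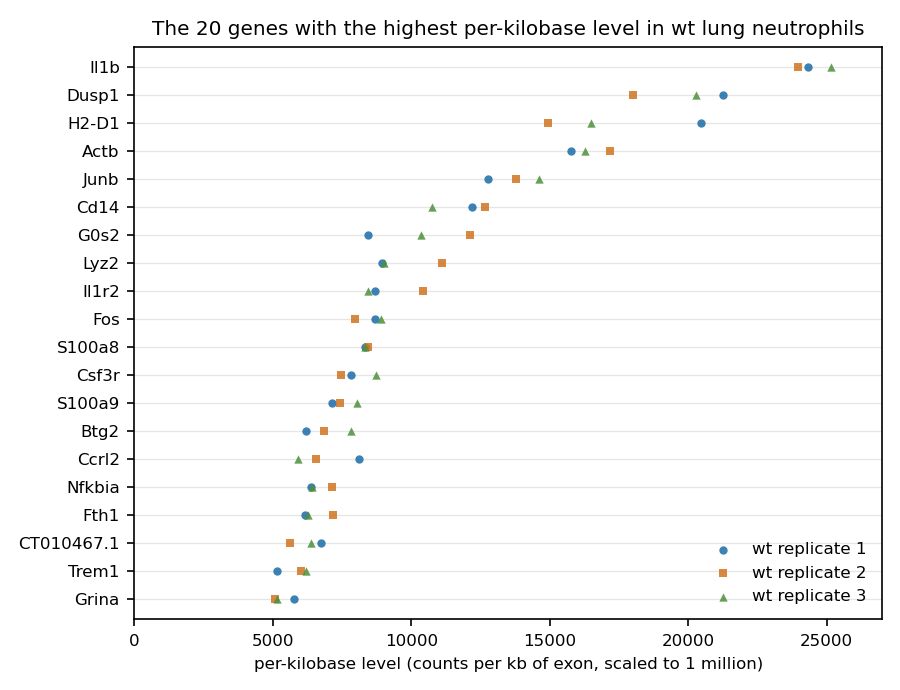
Per-kilobase level (x axis, counts per kilobase of exon, scaled to the total of CPM) of the 20 highest genes (y axis), with 1 point for each of the 3 wt libraries. Il1b is highest in all 3, between 23975 and 25169, and the widest gaps between libraries among the top genes are those of H2-D1 and G0s2.

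The ribosomal RNA entry, annotated on chromosome 17, took 0.411% to 0.484% of the counts. It was the only one of 354 annotated ribosomal RNA genes that was detected.

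Of the 100 genes with the highest per-kilobase level, 66 were in a list described below. Among the other 34 were Plaur, the urokinase receptor, at 3909 per kilobase, Acod1, which makes itaconate in activated myeloid cells, at 2810, the niacin receptor Hcar2 at 2957, the prothrombinase Fgl2 at 2536, and glutathione reductase (Gsr) at 2112. These 5 were picked after their values were seen.

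The start sites of 4 of the 20 highest genes are shown, because they carry the letters of well-known promoter elements. Sequences are from RefSeq (GRCm38.p6), 5′ to 3′ on the gene's strand, from 170 bases before to 30 bases after the annotated start. Capitals mark TATAAA, the letters of a TATA box, in Il1b and Fos, and TGACGTCA, the full cyclic AMP response element bound by CREB and ATF proteins, in Dusp1 and Btg2.
Il1b, chr2:129371110-129371309, minus strand: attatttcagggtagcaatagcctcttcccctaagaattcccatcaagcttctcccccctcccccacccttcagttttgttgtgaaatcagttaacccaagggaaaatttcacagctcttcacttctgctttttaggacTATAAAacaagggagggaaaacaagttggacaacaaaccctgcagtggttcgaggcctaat
Fos, chr12:85473720-85473919, plus strand: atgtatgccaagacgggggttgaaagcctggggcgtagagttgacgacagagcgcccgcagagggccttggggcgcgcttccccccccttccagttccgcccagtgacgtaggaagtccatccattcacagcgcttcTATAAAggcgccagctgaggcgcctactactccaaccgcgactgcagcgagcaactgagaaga
Dusp1, chr17:26508443-26508642, minus strand: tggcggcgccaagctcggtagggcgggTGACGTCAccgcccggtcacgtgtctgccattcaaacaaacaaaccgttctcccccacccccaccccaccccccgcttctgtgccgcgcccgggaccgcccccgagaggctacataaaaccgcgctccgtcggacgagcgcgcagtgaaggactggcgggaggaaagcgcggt
Btg2, chr1:134079126-134079325, minus strand: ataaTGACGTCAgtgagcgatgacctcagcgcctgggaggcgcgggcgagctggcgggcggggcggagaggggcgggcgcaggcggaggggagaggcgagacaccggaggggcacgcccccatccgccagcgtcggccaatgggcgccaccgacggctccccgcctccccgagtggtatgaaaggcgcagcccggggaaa

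The first base of TATAAA lay 31 bases before the annotated start of Il1b and 33 bases before that of Fos. TGACGTCA began 143 bases before the start of Dusp1 and 166 before that of Btg2. The RefSeq table held a promoter of 300 bases (250 before the start and 50 after it) for 27025 genes, for 8527 of the detected genes and for 78 of the 100 highest per kilobase. TATAAA occurred on either strand in 15.7% of all 27025, in 8.99% of the detected genes and in 28.2% (22 of 78) of the highest. TGACGTCA reads the same on both strands. It occurred in 2.03% of all 27025, in 3.53% of the detected genes and in 4 of 78 of the highest. Among the immediate early genes with a promoter it occurred in 3 of 23. In the other lists searched its share ranged from 0 of 28 (type I interferon-stimulated genes) to 6 of 58 (ribosomal protein genes). A match is a string of letters in this window and was not tested as a binding site.

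The granule genes differed by class, and most of the earliest class were near 0. Of 7 azurophil genes, 3 were detected and 4 lay under 1 CPM in at least 1 library, where 47.6% of all protein-coding genes were detected. Elane (neutrophil elastase) had 0 counts in all 3 libraries, Mpo (myeloperoxidase) stood at 0.0654, 0.0657 and 1.06 CPM, Prtn3 (proteinase 3) at 0.327, 0.723 and 0.156, and Ctsg (cathepsin G) at 0, 0 and 0.187 CPM. The highest was Srgn, the proteoglycan serglycin that packs granule contents and is used by several granule types, at 2922, 3707 and 2456 CPM. Ctsc, the protease that activates these enzymes, stood at 49.8, 53.1 and 52.7 CPM.

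Specific granule genes were detected in 14 of 15 cases, but over a wide range of levels. The highest were Lyz2 (3427, 4350 and 3457 CPM), haptoglobin (Hp; 2413, 2437 and 2377 CPM) and Lrg1 (1455, 1328 and 1294 CPM). Mmp8, the neutrophil collagenase, followed at 1073, 1048 and 1027 CPM. The classic specific granule genes of marrow stages were far lower per kilobase: Lcn2 (lipocalin 2) at 263, Ngp at 133, Ltf (lactoferrin) at 54.0 and Camp (cathelicidin) at 7.29, against 9696 for Lyz2. Ngp was higher in wt replicate 1 (74.1 CPM) than in replicates 2 and 3 (35.7 and 33.1 CPM), and Camp and Ltf were highest in the same library. Orm1 stood between 1.28 and 2.01 CPM.

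The late class was led by Mmp9 (gelatinase B), at 4173, 4429 and 4614 CPM. The Fc receptor gene Fcgr3 stood at 1303, 1253 and 1180 CPM and the sheddase gene Adam8 at 1519, 1502 and 1569 CPM. Of 12 members 9 were detected, and Fcnb (ficolin B) had 0 counts in all 3 libraries. Arg1 (arginase 1) stood between 0.263 and 1.03 CPM and Alpl (alkaline phosphatase) between 0.249 and 0.986. Itgam (CD11b) stood at 228, 227 and 203 CPM, but 68.7% of its exon bases lie in exons of another annotated gene, and the sources do not say how reads there were counted.

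**Figure D2:**
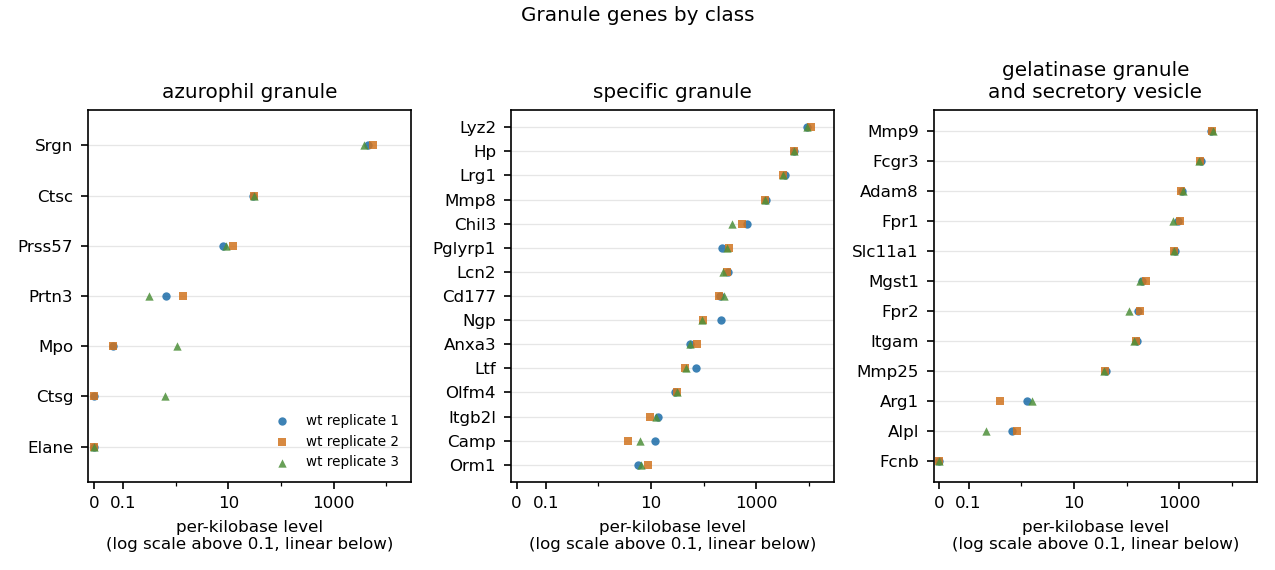
Per-kilobase level (x axis, log scale above 0.1 and linear below) of the granule genes in 3 classes, 1 point per wt library. The azurophil genes Elane, Mpo, Prtn3 and Ctsg lie near 0, while the specific and gelatinase classes reach 9696 (Lyz2) and 4246 (Mmp9).

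Precursor genes were low as a whole. The list of 10 genes of dividing neutrophil precursors summed to 40.4, 35.9 and 31.6 CPM, with 3 members detected and Elane, Ms4a3 and Fcnb at 0. Of 21 cell cycle genes 10 were detected, near the 47.6% of all protein-coding genes that were. They summed to 136, 122 and 127 CPM, with a median member at 1.60 per kilobase. Mcm4 (28.8, 33.8 and 32.6 CPM) and Pcna (18.4, 20.0 and 15.1 CPM), of the replication machinery, were the highest per kilobase. The mitotic genes Top2a, Ccna2, Plk1 and Bub1 reached at most 1.37 CPM in a library. Cebpe, the transcription factor of the secondary granule programme, stood at 7.59, 7.76 and 4.67 CPM, and Gfi1 under 1 CPM in each library.

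Of the S100 and annexin genes, which encode calcium-binding proteins, 15 of 16 were detected. After S100a8 and S100a9 the highest per kilobase were Anxa2 at 2348 and Anxa1 at 1588, the latter a brake on neutrophil adhesion. Anxa1 stood at 1332, 1472 and 1265 CPM. S100a4 had 0, 2 and 0 counts, and 51.7% of its exon bases are shared with another annotated gene.

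Among 30 cytokine genes 21 were detected, and a few dominated. Il1b alone took 13689 of a mean summed 19643 CPM. Osm (oncostatin M) stood at 3432, 3171 and 3658 CPM and ranked 21st per kilobase. Il1rn, the secreted interleukin 1 receptor antagonist, stood at 1280, 1582 and 1212 CPM. Tnfsf14 (LIGHT), Ltb (lymphotoxin beta), the macrophage growth factor Csf1, Il16 and Il15 stood between 96.8 and 264 CPM in each library.

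Several cytokines often measured in inflamed lung were low or undetected. Tnf stood at 40.3, 48.7 and 28.2 CPM and Il1a at 44.3, 63.0 and 42.1 CPM. Il6 and Il10 reached at most 0.460 and 0.329 CPM in a library, Ifng reached 2 counts in 1 library, and Il17a and Ifnb1 had 0 counts in all 3. Il23a, the p19 subunit of interleukin 23, had a mean of 67.0 ± 8.98 CPM (SD, n = 3), while Il12b, the subunit it pairs with, was under 1 CPM in each library.

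Of 18 chemokine genes 11 were detected. Cxcl2, a ligand of CXCR2 that draws further neutrophils, stood at 1722, 1643 and 1368 CPM, and Ccl6 at 1097, 1540 and 904 CPM. These were the only 2 members with a mean above 1000 CPM. Ccl3 (37.8, 36.4 and 19.0 CPM) and Ccl4 (31.1, 35.4 and 24.1 CPM), which attract other leukocytes, came next per kilobase, and Cxcl1 stood at 26.9, 24.1 and 16.9 CPM. Of the 10 members with a mean of 10 CPM or more, 8 were lowest in wt replicate 3, where 32.4% of all 6861 such genes were lowest, and 2, Ccl9 (17.4, 16.9 and 7.28 CPM) and Cxcl16 (10.6, 6.41 and 14.0 CPM), exceeded a 2-fold range between libraries, as 3.29% of those 6861 genes did. Cxcl5 and Ccl24 were near 0, with Cxcl5 at 0, 0 and 0.187 CPM.

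Chemoattractant receptors were broadly present, with 24 of 26 detected. Ccrl2, which binds chemerin without signalling, was highest at 6136, 5067 and 4467 CPM. C5ar1, the receptor for complement C5a, stood at 2277, 2471 and 2410 CPM, Ccr1 at 1835, 2037 and 1845 CPM, and the formyl peptide receptor Fpr1 at 362, 405 and 296 CPM. Cxcr4, which retains cells in marrow and marks aged neutrophils, stood at 92.8, 89.1 and 95.5 CPM, and its per-kilobase level of 174 compares with 2861 for Cxcr2. Cxcr1 stood at 28.1, 23.2 and 20.7 CPM, or 54.9 per kilobase. Cmklr1, the signalling chemerin receptor, and C3ar1 were not detected.

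Cytokine receptors were detected in 26 of 27 cases and took 2.27% to 2.38% of the counts. The decoy Il1r2 stood at 4816, 5913 and 4699 CPM, and the signalling receptor Il1r1 at 3.27, 4.47 and 4.82 CPM, per-kilobase levels of 9185 and 2.24. The TNF receptors Tnfrsf1a (1155, 1086 and 1264 CPM) and Tnfrsf1b (1230, 1229 and 1296 CPM) were at similar levels per kilobase, 1539 and 1118. The 2 chains of the GM-CSF receptor, Csf2ra and Csf2rb, and the interleukin 10, 17 and 4 receptor chains Il10ra, Il17ra and Il4ra, lay between 488 and 1179 CPM in each library. Ifngr1 stood at 422, 430 and 427 CPM and Ifnar1 at 282, 280 and 280 CPM, nearly the same in each library. Il5ra, the eosinophil receptor chain, stayed under 1 CPM.

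Sensors of microbes were led by Cd14, at 6148, 6514 and 5415 CPM. Tlr2 stood at 860, 919 and 882 CPM, and Tlr13, the mouse sensor of bacterial ribosomal RNA, at 724, 620 and 544 CPM. Myd88, the adaptor of most of these receptors, stood at 390, 378 and 445 CPM. Tlr4 stood at 102, 97.9 and 83.6 CPM, a per-kilobase level of 58.0 against 1004 for Tlr2, and its partner Ly96 (MD-2) stood at 3.56, 3.02 and 2.37 CPM. Tlr9 had 0 counts in all 3 libraries. The inflammasome sensor Nlrp3 stood at 421, 476 and 486 CPM and the pore former Gsdmd at 271, 302 and 287 CPM, while the adaptor Pycard (ASC) stood at 3.37, 3.35 and 3.24 CPM. The counts of Tlr9 and Pycard could not be checked against the reads. In all, 26 of 30 members were detected.

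Lectin, Fc and paired receptors formed one of the largest receptor classes, with 31 of 32 genes detected, 23 above 100 per kilobase and a sum of 27220, 29455 and 27568 CPM. Trem1 stood at 4477, 5364 and 5404 CPM and its signalling partner Tyrobp (DAP12) at 763, 915 and 922 CPM, per-kilobase levels of 5783 and 4429. Activating lectins included Clec4d (1393, 1567 and 1183 CPM), Clec4e (Mincle; 2101, 2162 and 1599 CPM) and Clec7a (Dectin-1; 932, 1001 and 983 CPM). The inhibitory receptor gene Pirb stood at 1548, 1535 and 1645 CPM and Cd33 at 1534, 1369 and 1310 CPM, per-kilobase levels of 1202 and 617. Lilr4b (3740, 4508 and 3718 CPM) has a near-identical neighbour, Lilrb4a, so the split of reads between them is uncertain. Trem2, a receptor of tissue macrophages, was not detected.

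For adhesion, all 23 genes listed were detected. Selplg (PSGL-1), the selectin ligand used for rolling, was highest at 3569, 3291 and 3546 CPM. Itgb2 (CD18), the beta chain of the leukocyte integrins, stood at 2047, 2128 and 2392 CPM, with its partner Itgal (LFA-1) at 1406, 1379 and 1449 CPM. Of the 22 members with a mean of 10 CPM or more 0 exceeded a 2-fold range, which at 3.29% of all 6861 genes at that level is near the background. Itgad was the lowest, at 1.11 to 2.61 CPM.

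The NADPH oxidase, which makes superoxide, had all 10 listed genes detected. The GTPase gene Rac2 stood at 1837, 2076 and 1910 CPM. The membrane subunit Cyba (p22phox) stood at 815 per kilobase and the cytosolic subunits Ncf4 and Ncf1 at 631 and 426. The catalytic subunit Cybb (gp91phox) was the lower partner of the membrane pair, at 89.1, 117 and 92.2 CPM and 58.4 per kilobase. Hvcn1, a proton channel that supports the burst, was lowest at 5.53, 2.10 and 5.14 CPM.

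Of 16 eicosanoid enzyme genes 12 were detected. Ptgs2 (COX-2), the inducible prostaglandin synthase, stood at 4822, 5279 and 5573 CPM, a per-kilobase level of 3891 against 32.2 for the constitutive Ptgs1. Pla2g7, which breaks down platelet-activating factor, stood at 1633, 1495 and 1516 CPM. The leukotriene genes Alox5 (568, 646 and 628 CPM) and Alox5ap (274, 325 and 289 CPM) were present, and Lta4h, which makes leukotriene B4, stood at 62.0, 52.1 and 68.6 CPM. Ltc4s and Alox15 were not detected. Ptges, which converts the COX product to prostaglandin E2, stood at 7.03, 5.36 and 5.66 CPM.

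Genes linked to suppression of T cells were mixed, with 10 of 12 detected. Arg2 stood at 497, 515 and 463 CPM and 1175 per kilobase, against 1.10 per kilobase for Arg1, and Entpd1 (CD39) stood at 1125, 1075 and 973 CPM. Cd101, a marker of mature neutrophils, stood at 610, 649 and 636 CPM. Cd274 (PD-L1) stood at 373, 222 and 261 CPM. Nos2 and Ido1 reached at most 4.48 CPM in a library.

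Transcription factor genes were led by Mxd1, an antagonist of MYC, at 9552, 8884 and 8911 CPM. Spi1 (PU.1), the master factor of myeloid cells, stood at 1401, 1507 and 1448 CPM, and Ets2 at 1704, 1662 and 1753 CPM. Myc stood at 4.41, 5.39 and 4.67 CPM, a per-kilobase level of 6.05 against 4398 for Mxd1. Cebpb was uneven: it stood at 34.4 and 46.2 CPM in wt replicates 1 and 2 and at 130 CPM in replicate 3. The lymphoid factor Pax5 reached 1 CPM only in replicate 3, and the erythroid factor Gata1 had 0 counts.

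Immediate early genes, which cells switch on within minutes of a stimulus without new protein synthesis, were the largest class. All 28 were detected, and they took 5.45% to 5.91% of the counts (55178, 54450 and 59073 CPM). After Dusp1, Junb, Fos and Btg2 came Nr4a1, an orphan nuclear receptor, at 3693, 4698 and 5523 CPM, Ier2 at 1240, 1148 and 1245 CPM and Zfp36 (tristetraprolin), which destabilises cytokine mRNA, at 2704, 2331 and 2526 CPM. Atf3 stood at 500, 477 and 652 CPM and Egr1 at 390, 513 and 570 CPM. The JUN family was unequal per kilobase: Junb at 13716, Jun at 278 and Jund at 17.7, although 52.6% of the exon bases of Jund are shared with another annotated gene. Of the 24 members with a mean of 10 CPM or more 0 exceeded a 2-fold range, which at 3.29% of all 6861 genes is near the background. The lowest member was Egr3 at 1.68 to 2.53 CPM.

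All 19 genes of the NF-kB system were detected. Per kilobase the IkB family genes Nfkbia (6637), Nfkbid (1868) and Nfkbiz (1850) stood above every subunit. This did not hold for the whole family: Bcl3, at 96.2, lay below Rela and Nfkb2. Nfkbia (IkB alpha) stood at 2991, 3407 and 3005 CPM, Nfkbiz at 2761, 2772 and 2631 CPM, Nfkbid at 1275, 1273 and 1305 CPM and the deubiquitinase Tnfaip3 (A20) at 1770, 1933 and 1928 CPM. Among the subunits Rela was highest, at 298 per kilobase, followed by Nfkb2 at 126, Rel at 78.4, Relb at 48.8 and Nfkb1 at 35.0.

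Stress genes, which tissue digestion can induce, were also present. Among 16 heat shock and chaperone genes, all detected, Hspa8 stood at 1543, 1701 and 2280 CPM, Hspa5 at 792, 840 and 964 CPM, and Hsp90ab1 at 268, 288 and 349 CPM. The inducible Hspa1a stood at 81.7, 90.9 and 87.7 CPM, and Hspe1 was lowest per kilobase at 1.93 to 2.30 CPM. The class summed to 3479, 3856 and 4601 CPM, highest in wt replicate 3, and 7 of its 14 members with a mean of 10 CPM or more were highest there, against 35.3% of all 6861 genes. All 14 genes of the unfolded protein response were detected, with Ppp1r15a (GADD34) at 2665, 2701 and 3280 CPM, Xbp1 at 457, 403 and 430 CPM, Herpud1 at 254, 237 and 229 CPM and Ddit3 (CHOP) at 39.6, 52.4 and 52.4 CPM. All 3 libraries came from digested and sorted tissue, so the levels of immediate early and stress genes before and after these steps cannot be told apart.

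The genes of the glucocorticoid response were all detected (11 of 11). Besides Dusp1, Il1r2 and Zfp36, which other stimuli also induce, Tsc22d3 (GILZ) stood at 2510, 1950 and 2128 CPM and Per1 at 918, 837 and 866 CPM. Fkbp5 was lower, at 87.9, 60.9 and 50.5 CPM, and the receptor gene Nr3c1 stood at 183, 180 and 192 CPM. Of 15 clock genes 13 were detected, and apart from Per1 they stood at 61.2 per kilobase or less: Bhlhe40 stood at 79.8, 97.0 and 76.9 CPM, Per2 stood at 73.8, 82.7 and 75.5 CPM, Nr1d1 at 14.1, 21.4 and 14.9, Arntl (BMAL1) at 3.04, 2.63 and 6.22 and Dbp at 1.41, 1.74 and 1.56 CPM. Hlf and Npas2 were not detected.

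Interferon-stimulated genes were present in all libraries, and many were highest or lowest in the same library. Of 35 genes of the type I response 33 were detected, led by Slfn4 (2979, 2941 and 2972 CPM), the membrane restriction factors Ifitm2 and Ifitm1 at 990 and 832 per kilobase, and Oasl2 (1187, 793 and 995 CPM). Isg15, a ubiquitin-like modifier, stood at 64.1, 67.2 and 75.3 CPM. Mx1 was not detected and Mx2 lay between 0.871 and 1.48 CPM. Among the 33 members with a mean of 10 CPM or more, 19 were highest in wt replicate 1, against 31.8% of all 6861 genes, and 26 were lowest in replicate 2, against 35.2%.

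The interferon-gamma-induced genes differed more between libraries than most genes did. The 23 genes, of which 21 were detected, summed to 2860 CPM in wt replicate 1, 1618 in replicate 2 and 2149 in replicate 3, a 1.77-fold range. Irf1 (ENSMUSG00000018899.16, plus strand of chromosome 11, 53770014 to 53778374), the transcription factor that relays the signal, stood at 886, 446 and 610 CPM. The GTPase gene Gbp2 stood at 281, 179 and 237 CPM. The immunity-related GTPases followed the same order, with Igtp at 189, 96.3 and 130 CPM, Irgm1 at 142, 66.6 and 89.3 CPM and Irgm2 at 162, 72.5 and 121 CPM. Of the 17 members with a mean of 10 CPM or more, 14 were highest in replicate 1 and 15 lowest in replicate 2, against 31.8% and 35.2% of all 6861 genes at that level. A 2-fold range was exceeded by 4 of the 17, against 3.29% (226 of 6861). Gbp9 was nearly even, at 155, 165 and 159 CPM. Cxcl9 was not detected, at 1.64 CPM in replicate 1 and at 0.197 and 0.124 CPM in replicates 2 and 3. The median SD on the log2 (CPM + 1) scale was 0.485 over these 17 genes and 0.167 over all 6861.

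Many MHC class I genes were ordered likewise. H2-D1 (ENSMUSG00000073411.11, plus strand of chromosome 17, 35262730 to 35267499) stood at 15361, 11444 and 12406 CPM and H2-K1 at 4686, 2606 and 3018 CPM. The shared light chain B2m, at 1452, 1243 and 1109 CPM, was highest in replicate 1 but lowest in replicate 3. The peptide transporter Tap1 stood at 366, 160 and 272 CPM, while its partner Tap2 stood at 179, 172 and 196 CPM. The class Ib genes H2-Q6 (757, 180 and 339 CPM) and H2-Q7 (569, 123 and 224 CPM) had the widest ranges, 4.21-fold and 4.63-fold. Of the 20 members, all detected, 11 were highest in replicate 1, 14 were lowest in replicate 2 and 5 exceeded a 2-fold range, against 31.8%, 35.2% and 3.29% of all 6861 genes. Class I genes are near-copies of each other, so the split of reads among them is uncertain. Whether the B6 and 129 parts of the cross differ at these genes was not tested.

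**Figure D3:**
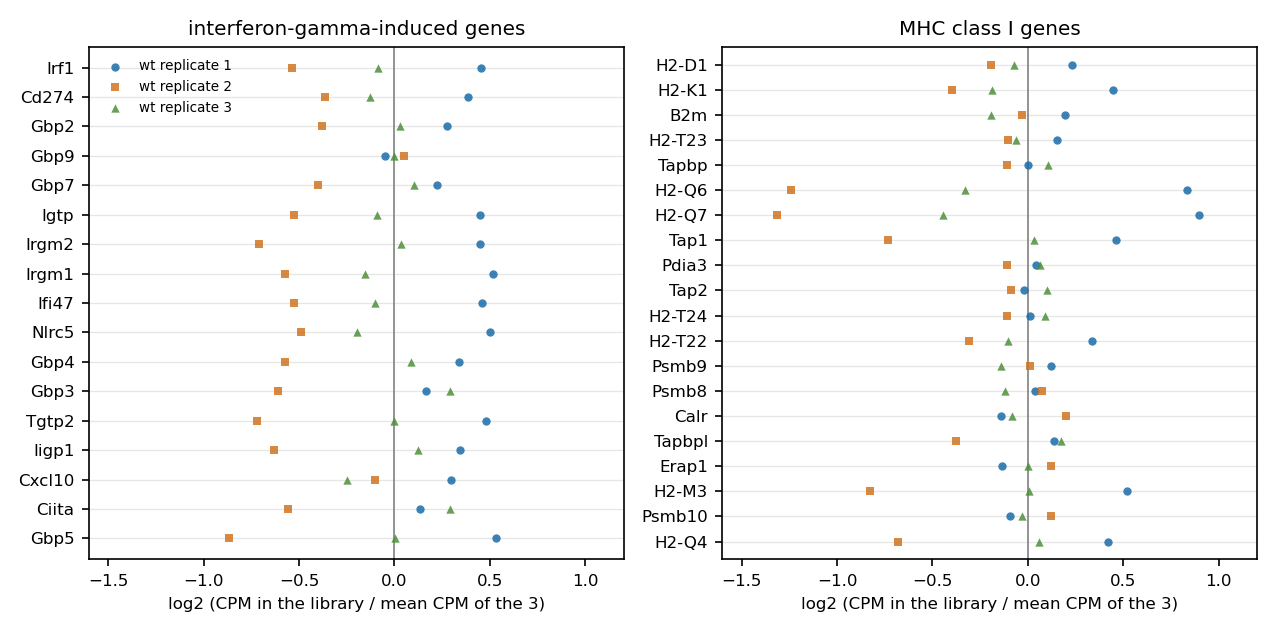
Deviation of each wt library from the mean of the 3 (x axis, log2 ratio of CPM) for interferon-gamma-induced genes (left) and MHC class I genes (right) with a mean of 10 CPM or more. Replicate 1 lies to the right and replicate 2 to the left for most genes, 14 and 15 of 17 on the left panel.

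The promoters of 3 of the interferon-gamma-induced genes are shown because they hold the core of an interferon-stimulated response element. They were chosen for it: both Irf1 promoters in the table and those of H2-K1, H2-D1 and H2-Q7 had no match. Sequences are from RefSeq (GRCm38.p6), with the same window and strand rule as above. Capitals mark this core, GAAANNGAA on either strand. The element was searched only as this exact string, so its variants were not counted.
Gbp2, chr3:142620493-142620692, plus strand: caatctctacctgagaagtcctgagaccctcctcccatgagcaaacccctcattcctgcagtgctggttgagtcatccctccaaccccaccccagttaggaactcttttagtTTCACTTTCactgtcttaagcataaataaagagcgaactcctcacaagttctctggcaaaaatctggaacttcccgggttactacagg
Igtp, chr11:58199386-58199585, plus strand: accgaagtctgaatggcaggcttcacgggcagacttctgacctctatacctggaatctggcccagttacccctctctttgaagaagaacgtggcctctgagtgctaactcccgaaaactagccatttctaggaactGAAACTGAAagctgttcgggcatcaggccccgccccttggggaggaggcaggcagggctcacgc
Irgm2, chr11:58214807-58215006, plus strand: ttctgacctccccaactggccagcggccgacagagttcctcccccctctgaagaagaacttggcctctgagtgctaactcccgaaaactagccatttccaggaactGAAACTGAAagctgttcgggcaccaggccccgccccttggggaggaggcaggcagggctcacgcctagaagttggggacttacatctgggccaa

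In Gbp2 TTCACTTTC, which is GAAANNGAA on the other strand, began 58 bases before the start. Igtp and Irgm2 both carried GAAACTGAA, 34 and 64 bases before their starts. In 300-base promoters on either strand, GAAANNGAA occurred in 87.5% (14 of 16) of the interferon-gamma-induced genes with a promoter, in 53.6% (15 of 28) of the type I list and in 9.76% of all 27025 genes. Within MHC class I, 23.5% (4 of 17) held GAAANNGAA.

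All 14 genes of the list of MHC class II and its costimulators were detected. Their median member stood at 32.8 per kilobase, against 165 for MHC class I and 12.6 for the median detected gene. Cd74, the invariant chain, stood at 412, 261 and 267 CPM, H2-Ab1 at 202, 168 and 213 CPM and Cd80 at 234, 224 and 175 CPM. Cd40 and H2-Oa reached at most 6.18 CPM. Class II genes are also made by B cells, macrophages and dendritic cells, whose markers are given below.

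The actin cytoskeleton, which drives crawling and phagocytosis, was the second largest class, at 43633, 46521 and 45662 CPM with 32 of 32 genes detected. Actb stood at 12287, 13686 and 12696 CPM, its near-copy Actg1 at 3778, 3817 and 3696 CPM, and the actin-binding Coro1a at 2184, 2218 and 2246 CPM. Lcp1 (L-plastin) stood at 5712, 5607 and 6659 CPM. Within the class 21 of 31 members with a mean of 10 CPM or more were highest in wt replicate 2, against 32.8% of all genes. Tmsb10, in contrast to Tmsb4x at 2689 per kilobase, was at 13.4.

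Ribosomal protein genes, among the most abundant mRNAs in most dividing cells, were modest here. The 79 genes summed to 2153, 2389 and 2495 CPM, 0.215% to 0.249% of the counts. The median member stood at 23.7 per kilobase, and 72 were detected. Rplp0 (263, 286 and 283 CPM), Fau (85.4, 104 and 125 CPM) and Rpl4 (213, 193 and 234 CPM) were the highest per kilobase, while Rpl24 stayed under 1 CPM. These genes are short and have many processed pseudogenes, so reads could be lost or split in counting, and the levels are uncertain. Of the 45 members with a mean of 10 CPM or more, 36 were lowest in wt replicate 1, against 32.4% of all genes. Of the translation factors 19 of 19 were detected, with a median of 121 per kilobase, Eef1a1 at 880, 759 and 873 CPM and Eif1 at 564, 640 and 547 CPM.

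Glycolysis genes stood above those of oxidative phosphorylation per kilobase. All 21 glycolysis genes were detected and summed to 12720, 13304 and 13960 CPM, with a median member at 366 per kilobase. The lactate exporter Slc16a3 (MCT4) stood at 3753, 3843 and 4094 CPM, Pkm at 2061, 2126 and 2378 CPM, Aldoa at 747, 831 and 789 CPM and the myeloid hexokinase Hk3 at 527, 705 and 769 CPM. The 21 nuclear genes of oxidative phosphorylation were also all detected but summed to 1494, 1452 and 1498 CPM, with a median member at 57.7 per kilobase. Atp5b, of the ATP synthase, led them at 371, 324 and 330 CPM, and Atp5g1 was lowest at 2.55 to 4.24 CPM.

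Of 15 mitochondrially encoded genes 11 were detected. mt-Cytb stood at 688, 959 and 607 CPM, mt-Co1 at 806, 948 and 649 CPM and the ribosomal RNA mt-Rnr2 at 679, 757 and 542 CPM. All 8 members with a mean of 10 CPM or more were highest in wt replicate 2, against 32.8% of all 6861 genes. mt-Co2, mt-Atp8, mt-Nd3 and mt-Nd4l lay under 1 CPM in each library, far from their neighbours on the same genome. Mitochondrial genes have copies in the nuclear genome, so these single-gene values are uncertain.

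Iron and redox genes were prominent, with 24 of 25 detected. Fth1 stood at 6225, 7383 and 6320 CPM, the ferritin light chain Ftl1 at 1027, 1345 and 1213 CPM, and Nfe2l2 (NRF2), the factor that switches on antioxidant genes, at 866, 933 and 960 CPM. The NRF2 target Slc7a11, a cystine transporter, stood at 547, 660 and 450 CPM, but Nqo1, Gclm and Gclc reached at most 14.9 CPM in a library. Mt2 had 0 counts, with 73.5% of its exon bases shared with another annotated gene.

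Among genes of cell survival Mcl1, on which neutrophils depend, was highest at 672, 704 and 648 CPM. The proapoptotic BH3-only genes Pmaip1 (NOXA; 155, 174 and 169 CPM) and Bid (154, 172 and 179 CPM) followed per kilobase, and Bcl2l11 (BIM) stood at 158, 140 and 137 CPM. Bcl2 stood at 5.79, 5.62 and 7.13 CPM. The Bcl2a1 genes are near-identical copies and stood between 2.42 and 17.4 CPM. Hrk was not detected, and 15 of 17 members were.

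All 21 lysosomal genes were detected. Psap (prosaposin) stood at 2403, 2524 and 2661 CPM, Ctsd (cathepsin D) at 859, 799 and 839 CPM and Ctsz at 229, 249 and 226 CPM. Npc1 was lowest per kilobase, at 18.8 to 24.5 CPM.

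TGF-beta signalling, the pathway for which the floxed allele was made, had 27 of 29 matched genes detected. Its ligands had few counts: Tgfb1 stood at 2.32, 2.56 and 1.81 CPM, Tgfb2 at 3.27, 2.40 and 3.02 and Tgfb3 at 6.74, 8.35 and 7.59 CPM. None of the exon bases of Tgfb1 lay in another annotated gene. Whether its count reflects the transcript in full could not be checked without the reads. Of the proteins that activate or hold the latent ligand, Thbs1 (thrombospondin 1) was at 3114, 3210 and 3330 CPM, while Lrrc32 (GARP) was at 27.0, 19.6 and 25.8 CPM and Itgb8 had 0 counts.

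Transcripts of both signalling receptors were present, and their source among the sorted cells was not tested. Tgfbr2 (ENSMUSG00000032440.13, minus strand of chromosome 9, 116084293 to 116175360) stood at 185, 184 and 200 CPM, a mean of 190 ± 8.73 (SD, n = 3), and Tgfbr1 at 63.6, 69.9 and 76.5 CPM. Per kilobase these were 79.1 and 36.6, both above the median detected gene at 12.6. The coreceptor Eng (endoglin), which endothelium also makes, stood at 302, 275 and 437 CPM. The receptor-regulated Smad3 (72.5, 81.8 and 55.6 CPM) and Smad2 (69.8, 52.0 and 63.4 CPM) and the common partner Smad4 (43.2, 42.7 and 36.8 CPM) lay in one range. The inhibitory Smad7 stood at 11.7, 14.0 and 12.0 CPM, and the corepressors Tgif1 (246, 281 and 231 CPM) and Skil (188, 243 and 186 CPM) were higher.

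The plot of gene classes sets all these sums side by side.

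**Figure D4:**
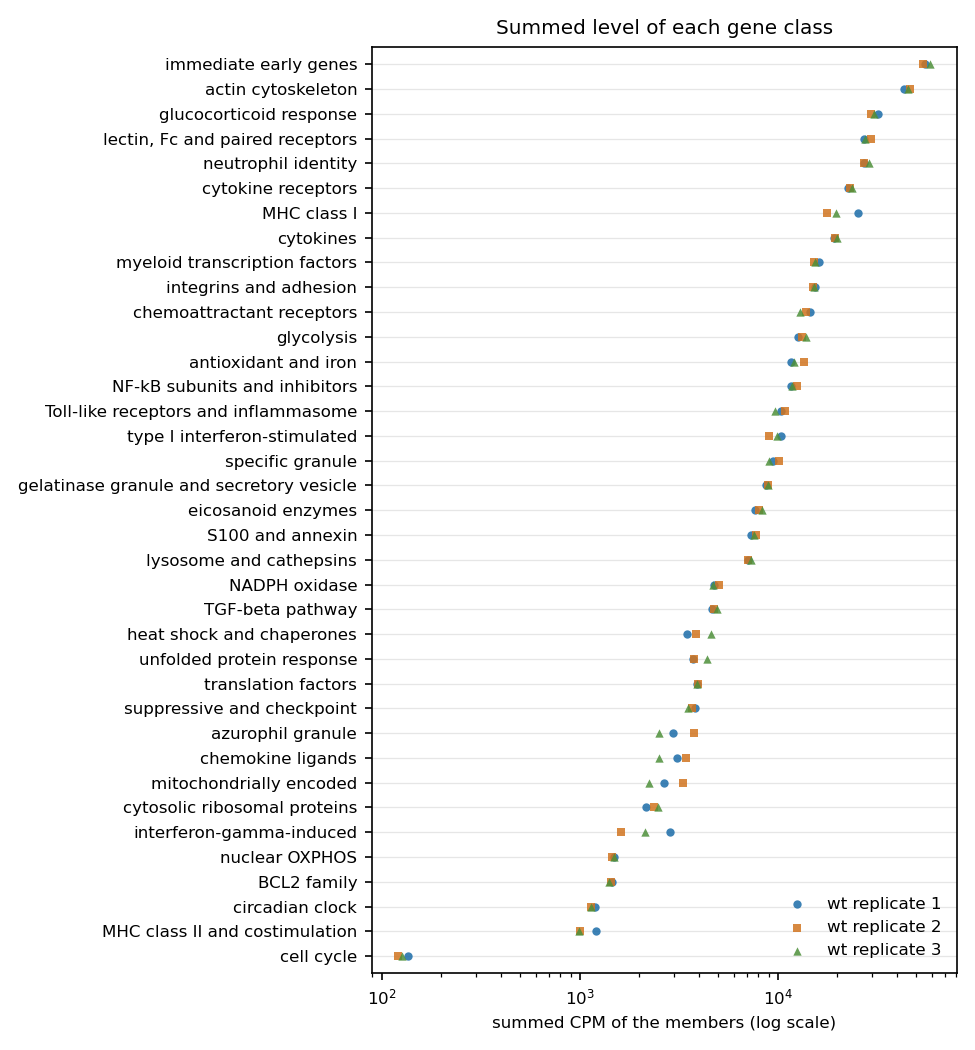
Summed CPM (x axis, log scale) of the members of each gene class except the sex-linked transcripts (y axis), 1 point per wt library. Immediate early and actin genes are highest, at 54450 to 59073 and 43633 to 46521, the cell cycle list is the lowest plotted at 122 to 136, and of the lists plotted the interferon-gamma, mitochondrial and azurophil lists show the widest gaps between libraries; several lists share members.

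Markers of other lung cells were detectable in the sorted libraries. The 128 marker genes of 14 other cell types summed to 4731, 4912 and 5132 CPM, 0.473% to 0.513% of the counts. This is the share of the marker genes alone, and the total RNA from other cells was not measured. In bulk libraries, fewer cells of a type and less RNA per cell cannot be told apart. The monocyte list includes Csf1r, at 638, 621 and 678 CPM, and its source among the sorted cells was not tested.

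Endothelial markers were the largest of these lists, at 1528, 1433 and 1716 CPM with all 10 detected. Cldn5, a tight junction gene, stood at 396, 383 and 415 CPM and Vwf (von Willebrand factor) at 169, 167 and 211 CPM. All 10 were highest in wt replicate 3, where 35.3% of all genes were. The monocyte and interstitial macrophage list summed to 1216, 1249 and 1305 CPM, mostly from Csf1r and Apoe (327, 373 and 351 CPM), while its macrophage-specific complement genes C1qa, C1qb and C1qc reached at most 6.25 CPM. Fibroblast and smooth muscle markers summed to 566, 560 and 619 CPM, led by Inmt (145, 168 and 176 CPM) and Col3a1 (106, 84.9 and 102 CPM).

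Alveolar epithelial markers differed between libraries, at 479, 697 and 389 CPM. The surfactant gene Sftpc stood at 130, 262 and 93.4 CPM and Napsa at 141, 131 and 114 CPM. Airway markers also differed, at 41.4, 90.3 and 57.4 CPM, with the club cell gene Scgb1a1 at 15.8, 44.9 and 28.9 CPM and Tppp3, of ciliated cells, at 18.8, 22.3 and 19.3 CPM. Both sums were highest in wt replicate 2, the library with the highest mitochondrial share.

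B and plasma cell markers summed to 300, 404 and 515 CPM, mostly from Ighm (255, 335 and 412 CPM), with the light chain gene Igkc at 8.96, 15.7 and 27.1 CPM. Alveolar macrophage markers summed to 272, 239 and 206 CPM, with Car4 (112, 86.4 and 84.6 CPM), which endothelial cells also make, and Siglecf (80.8, 79.9 and 78.5 CPM) the highest. Siglecf is also an eosinophil marker. It was 1 of 2 detected members of the 7 in the eosinophil list, with Ccr3 at 5.20, 3.45 and 8.56 CPM, while the granule protein genes Epx, Prg2 and Prg3 had 0 counts in all 3 libraries. In the basophil and mast cell list Kit (105, 89.0 and 107 CPM) and Gata2 (78.4, 49.0 and 56.0 CPM) were present, while the defining genes Fcer1a, Ms4a2, Mcpt8 and Tpsb2 had 0 counts.

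The remaining lists were smaller. T cell markers summed to 35.5, 17.8 and 36.1 CPM, led by Lck and Cd3d, NK cell markers to 47.5, 24.8 and 45.1 CPM, led by Prf1 and Gzma, and dendritic cell markers to 38.4, 37.8 and 44.3 CPM, led by Zbtb46 and Ccr7. T and NK sums were lowest in wt replicate 2, the library with the lowest interferon-gamma-induced genes. Their part in that difference was not tested, and Ifng itself had 0, 0 and 2 counts. Platelet markers summed to 13.8, 17.2 and 21.1 CPM, led by Itga2b and Clec1b. Erythroid markers summed to 0.785, 1.05 and 2.77 CPM, led by Hba-a1 and Hbb-bs, with none detected.

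**Figure D5:**
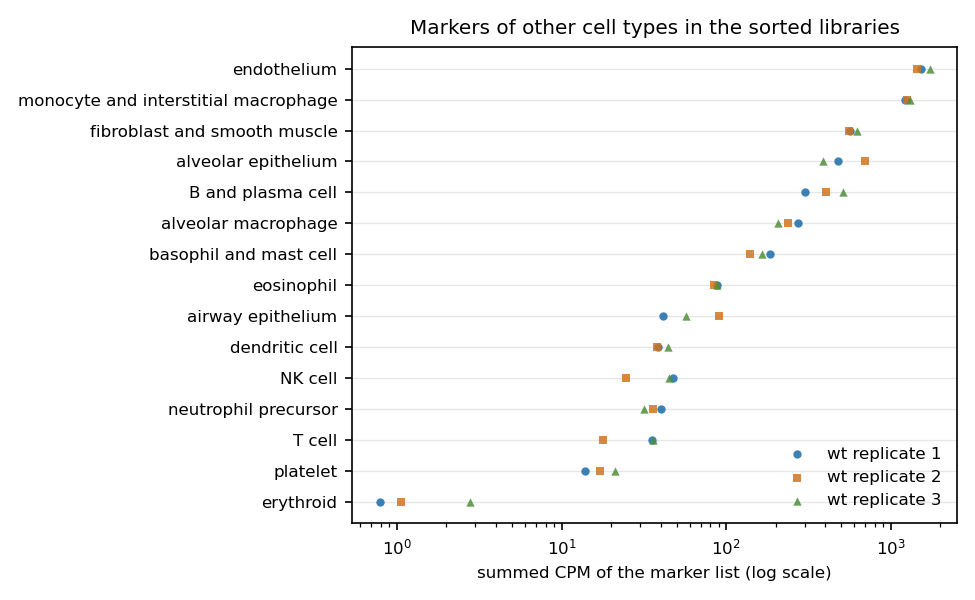
Summed CPM (x axis, log scale) of each list of markers of other cell types (y axis), 1 point per wt library. Endothelial and monocyte lists exceed 1000 CPM in every library, the T and NK cell lists reach at most 36.1 and 47.5, and the alveolar and airway epithelial lists are highest in replicate 2.

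For sex-linked transcripts, Ddx3y, Eif2s3y, Kdm5d and Uty of the Y chromosome had 0 counts in all 3 libraries, and Xist stood at 89.3, 78.6 and 47.7 CPM. A count of 0 allows a level of up to 0.0986 CPM.

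Differences between the 3 libraries were small for most genes. Over the 6861 genes with a mean of 10 CPM or more, the median gene had a 1.26-fold range between its highest and lowest library, and 226 (3.29%) exceeded 2-fold. The median biological coefficient of variation by edgeR was 0.154. Of the 154 genes at 1000 CPM or more, which held 40.6% of the counts, 0 exceeded 2-fold, as did 5 of the 1453 genes between 100 and 1000 CPM and 221 of the 5254 between 10 and 100 CPM. Each library was highest for a like share of genes (31.8%, 32.8% and 35.3% for wt replicates 1 to 3) and lowest for 32.4%, 35.2% and 32.4%.

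The 15 most variable genes were ranked by the SD of log2 (CPM + 1), among genes with an established symbol and a mean of 10 CPM or more. The glutathione transferase Gstp3, first by that measure, stood at 57.4, 78.0 and 4.64 CPM and was low in replicate 3 alone. Immunoglobulin genes Igha (15.6, 1.31 and 23.9 CPM) and Ighd (5.07, 11.3 and 21.5 CPM) and the lung cell genes Cyp2f2 (club cells; 5.56, 20.6 and 7.13 CPM), Mrc1 (macrophages; a mean of 15.5 CPM and a 3.96-fold range) and Flt4 (endothelium; 19.5, 4.70 and 14.1 CPM) were among the 15 most variable. H2-Q7, H2-Q6 and Cebpb, described above, were the other highly ranked ones of known immune function, with Tlr7 (18.9, 11.3 and 5.10 CPM). Lrrfip2 (11.3, 42.7 and 36.6 CPM) was low only in replicate 1, and Rps6kc1, Tmtc1, Tcaf1 and Myof had means between 10.3 and 11.9 CPM. Of the 15, only H2-Q6 and H2-Q7 had a mean above 100 CPM.

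Detection rose with the length of the gene. Among protein-coding genes 3.16% of those with up to 500 bases of exon were detected (12 of 380), against 26.5% between 1000 and 2000 bases and 72.4% above 8000 bases. Low members of the lists such as mt-Nd3 and Camp, with 348 and 758 bases of exon, lie in the length classes with the lowest detection, and the part of length in their values was not tested. Of the 892 list genes whose exons were compared with the annotation, 10 shared over 50 percent of their exon bases with another gene, 5 of the 774 detected and 5 of the 118 undetected ones.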

How the data were processed

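Bulk RNA-seq of the sorted neutrophils started, per the labels' protocols, from 2 ng of RNA amplified by SMART-Seq v2, a method that primes on poly(A) tails and keeps no strand. Nextera XT libraries followed, read in pairs of 151 cycles on a HiSeq 4000. The authors deposited raw read counts, whole numbers for each gene. STAR, featureCounts and GRCm38 are named in the submitters' processing notes. Their versions, the annotation release and the handling of reads in shared exons were not stated there. PCR copies are not separated from molecules, so limits cover counting error only. The spike-in RNA of the protocol had 0 rows in the table.

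Symbols came from GENCODE M21: 55094 identifiers matched exactly, with the same start and end, 300 matched without their version and 93 had no symbol. CPM and per-kilobase levels were computed from library totals and the deposited exon lengths (Python 3.11.15, pandas 2.3.3). Spread was the SD of log2(CPM + 1), the highest over the lowest library, and edgeR's biological coefficient of variation (edgeR 4.0.16, R 4.3.3), checked on simulated counts. A group of 3 with no other group allows no test, so no p-value is given. Depth was 30423365 to 32132330 counts per library.

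The members and the 53 lists (899 genes, 898 matched, 15 lists of markers) were chosen with earlier results of these data known. Named genes are the 6 markers and Ly6g, the 20 highest per kilobase and the 10 highest by CPM, the 3 highest and the lowest or undetected members of each list, the 15 most variable genes and the 2 highest of each marker list. Other members were named for their known role after their values were seen. Genes without an established symbol were counted, not named. Promoters came from RefSeq (GRCm38.p6). Alternatives were TMM scaling, DESeq2 size factors (DESeq2 1.42.0), other thresholds, each library left out and, chosen after seeing the data, the length of the principal transcript. The 3 mutant libraries were not used here. Some genes and 1 promoter pattern are not reported here.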

Additional observations from a re-analysis of the deposited data

How the results depend on the processing

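The 20 genes with the highest per-kilobase level stayed 20 of 20 with each wt library left out. They also stayed 20 of 20 under TMM scaling and DESeq2 size factors, but this was fixed in advance. Per-kilobase levels are rescaled to the same total in each library, so such factors cancel. With the length of the principal transcript, an alternative chosen after seeing the data, 16 of 20 stayed. Under it Fth1 rose from rank 17 to 6 and Hdc from 36 to 13. The share of the 10 most abundant genes was 10.4% of the counts, 10.7% of those of protein-coding genes, 14.1% of per-kilobase levels and 13.4% with principal transcript lengths. Detected genes ran from 7960 (5 CPM) to 14050 (1 CPM in at least 1 library), against 11378. The number of genes above a 2-fold range, 226 at a mean of 10 CPM, was 2764 at 1 CPM, 5 at 100 CPM and 12702 with no minimum, so it depends on the level at which genes are admitted. It fell to 86 to 102 with 1 library left out, where fewer libraries give a narrower range by construction. The markers of other cell types summed to 4822 to 5022 CPM when each library was left out, against 4925. The summed CPM of each list and the mean of each identity marker, 60 values in all, stayed within 1 SD under TMM scaling and DESeq2 size factors. Leaving out 1 of 3 libraries cannot move a mean by 1 SD, so it gives no measure of stability there. No paired analysis was possible because 1 group was described and no comparison was tested. With 3 libraries, no value here separates mice from technical spread, and levels under 0.0986 CPM were not measurable.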
